A study of Homo sapiens with 6 samples.

Results

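Ribosome biogenesis was followed here through 44 genes of the nucleolus, chosen by name, in ARPE-19 cells kept for 72 h in high or normal glucose medium. ARPE-19 is an established human line of the retinal pigment epithelium, labelled wild type, and nothing but the glucose level of the medium distinguishes the groups in the labels. There were 3 libraries of normal glucose and 3 of high glucose. The labels give no glucose concentration and name no separate cultures behind the replicates, so each p-value reflects library-to-library spread, possibly technical. All 44 genes were found among the 60835 loci of the deposited table, and all 44 passed the filter on low counts. The deposited annotation places 43 of them in the nucleolus, POLR1C being the exception.

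Ribosomes are built in the nucleolus. RNA polymerase I copies the ribosomal DNA into a long precursor, small nucleolar RNAs (snoRNAs) held in protein particles guide its chemical modification, and large sets of assembly factors cut and fold it into the small and the large subunit. MYC, a transcription factor that binds the E-box sequence, is known as an activator of many of these genes, and the level of the whole program is known to follow cell growth.

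The promoters of these genes are shown first. The genes were chosen by name, but MYC is known to activate many of them, so the choice may not be independent of its E-box. Promoter windows from RefSeq (GRCh38.p14), 250 bases before and 50 after the annotated start, were at hand for 37 of the 44. The E-box CACGTG, which reads the same on both strands, was present in 15 of these 37 windows (40.5%), against 1407 of 15843 protein-coding promoters (8.88%). Within 60 bases before to 50 after the start it was present in 14 of 37, or 37.8%, against 3.98% of all. Among 127 further ribosome biogenesis genes, 28 of 110 windows held it (25.5%). Stretches from 60 bases before to 25 after the start are printed for 6 genes with the E-box that did not pass the test described below, for 2 with it that did, and for 5 genes without it that did. Capitals mark CACGTG and CCGGAAG, the latter on either strand (then CTTCCGG).
FBL: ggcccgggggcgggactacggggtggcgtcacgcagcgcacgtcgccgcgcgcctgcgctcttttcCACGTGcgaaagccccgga
NOP10: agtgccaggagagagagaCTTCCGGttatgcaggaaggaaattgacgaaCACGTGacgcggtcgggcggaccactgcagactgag
UTP4: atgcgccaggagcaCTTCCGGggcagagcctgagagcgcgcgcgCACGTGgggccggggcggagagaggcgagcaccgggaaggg
UTP20: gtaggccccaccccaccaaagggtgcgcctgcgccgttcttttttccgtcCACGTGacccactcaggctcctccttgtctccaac
PES1: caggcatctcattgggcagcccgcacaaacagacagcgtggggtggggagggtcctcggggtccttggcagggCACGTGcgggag
GNL2: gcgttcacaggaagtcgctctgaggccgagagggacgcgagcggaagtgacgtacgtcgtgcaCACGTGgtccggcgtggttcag
WDR43: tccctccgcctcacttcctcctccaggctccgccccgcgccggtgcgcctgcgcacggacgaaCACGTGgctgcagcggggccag
NOP14: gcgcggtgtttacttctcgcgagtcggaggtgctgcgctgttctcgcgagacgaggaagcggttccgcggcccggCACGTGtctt
NOP56: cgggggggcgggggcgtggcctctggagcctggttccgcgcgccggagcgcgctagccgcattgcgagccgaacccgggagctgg
NPM1: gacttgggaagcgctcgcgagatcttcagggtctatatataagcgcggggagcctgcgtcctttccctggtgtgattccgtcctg
GNL3: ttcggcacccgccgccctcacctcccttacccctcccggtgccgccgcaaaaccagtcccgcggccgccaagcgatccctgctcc
POLR1A: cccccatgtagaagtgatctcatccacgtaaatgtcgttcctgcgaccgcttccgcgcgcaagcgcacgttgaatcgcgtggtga
NOP16: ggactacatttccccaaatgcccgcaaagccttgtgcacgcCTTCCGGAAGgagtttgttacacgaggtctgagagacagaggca
The stretches are those of FBL at chr19:39846355-39846439 (minus strand), NOP10 at chr15:34343112-34343196 (minus strand), UTP4 at chr16:69132589-69132673 (plus strand) and UTP20 at chr12:101280045-101280129 (plus strand). PES1 is at chr22:30591886-30591970 (minus strand), GNL2 at chr1:37595913-37595997 (minus strand), WDR43 at chr2:28894607-28894691 (plus strand) and NOP14 at chr4:2963382-2963466 (minus strand). NOP56 lies at chr20:2652572-2652656 (plus strand), NPM1 at chr5:171387789-171387873 (plus strand), GNL3 at chr3:52685860-52685944 (plus strand), POLR1A at chr2:86105862-86105946 (minus strand) and NOP16 at chr5:176388574-176388658 (minus strand).

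With the start as base 1, the E-box began at base 7 in FBL, 4 in WDR43 and in GNL2, 14 in PES1 and 16 in NOP14. In UTP20 it began at base -10 and in UTP4 at base -16, counted back from the start with no base 0. NOP10 held another copy outside the printed stretch. CCGGAAG, the core of ETS family sites, was in 14 of 37 windows (37.8%), against 14.2% of all promoters, and in NOP16 2 overlapping copies on opposite strands stood just before the start. Of the 9 other motifs searched on both strands, CACGCG was in 32.4% of the windows against 14.8% of all promoters, and TCGCGA in 13.5% against 4.39%. A longer palindrome that contains TCGCGA was in 2.70% against 0.669%, GCATGCGC in 8.11% against 4.26%, and AAGATGGC in 5.41% against 3.91%. CCAAT was in 37.8% against 36.4%, GGGCGG in 75.7% against 58.5%, TGACGTCA in 5.41% against 2.59%, and TGACGTAA in 0 of 37 against 0.568%. A match describes letters and does not show binding.

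Across the 44 genes the response to high glucose was small and went both ways. The counts were tested with edgeR across 25025 loci, and a gene is termed called when its Benjamini-Hochberg adjusted p (FDR) lay under 0.05. In high glucose 6 of the 44 rose (NOP16, NOLC1, UBTF, NOP14, POLR1A and RRP12) and 4 fell (GNL3, WDR43, NOP56 and NPM1), which is 22.7% of them. In the same fit the calls covered 25.5% of 13786 tested protein-coding loci (13.1% higher, 12.4% lower) and 19.6% of all tested loci (9.75% higher, 9.86% lower). The share among the 44 was thus near the background. The median log2 change of the 44 was 0.07, against 0.01 for protein-coding loci, and 24 of the 44 estimates lay above 0. Changes ranged from -0.78 to 0.90, with quartiles at -0.19 and 0.22. The quartiles of 10564 protein-coding loci with at least 5 CPM (TMM scaled counts per 1e6) were -0.35 and 0.35, and 28.4% of these were called. No member was called when a change beyond 0.5 on the log2 scale was required, and 7.64% of the protein-coding loci were called then.

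The summed level of the 44 genes was 3127, 3312 and 3270 CPM in normal glucose 1, 2 and 3 and 3186, 3236 and 3177 CPM in high glucose 1, 2 and 3. These sums overlap between the groups. The groups did not overlap for 16 members that were higher and 9 that were lower in every high glucose library, against 25.9% and 23.6% of the protein-coding loci, 49.5% together, and 21.8% and 20.5% of all tested loci, 42.3% together. Among the 34 members that were not called, the 95% interval of the log2 change lay within -1 to 1 for 32 and within -0.5 to 0.5 for 18. MYC and LYAR were the exceptions to the wider range.

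**Figure D1:**
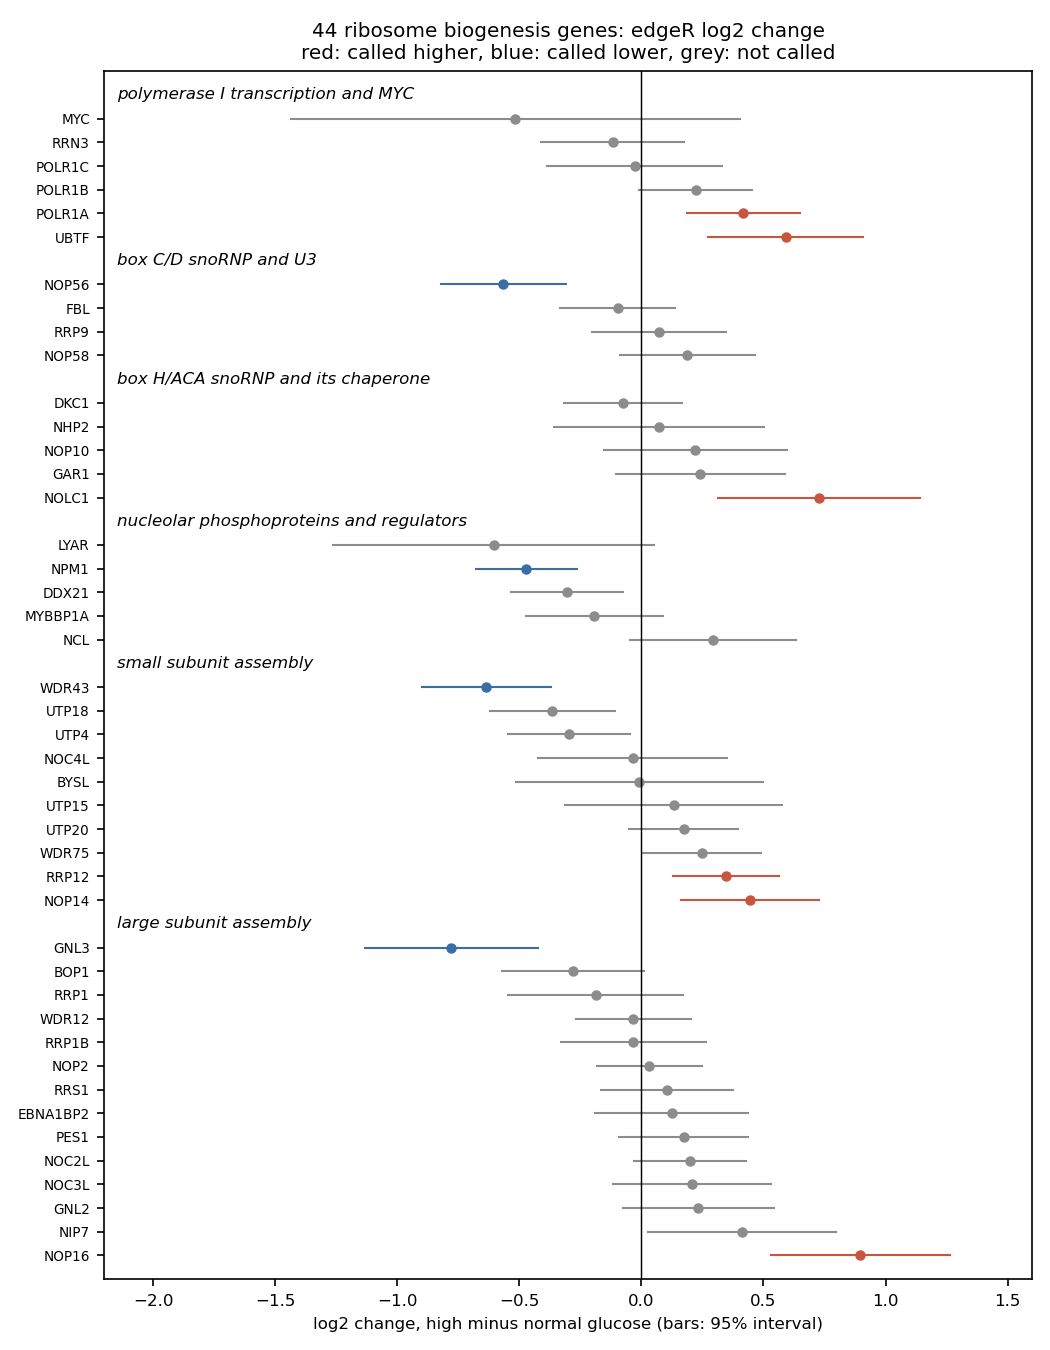
Log2 change (high minus normal glucose) of the 44 genes on the horizontal axis, ordered by role and size, with 95% intervals from the edgeR fit of 3 against 3 libraries. Red points mark the 6 genes called higher, blue points the 4 called lower and grey points the others, and estimates run from -0.78 for GNL3 to 0.90 for NOP16.

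**Figure D2:**
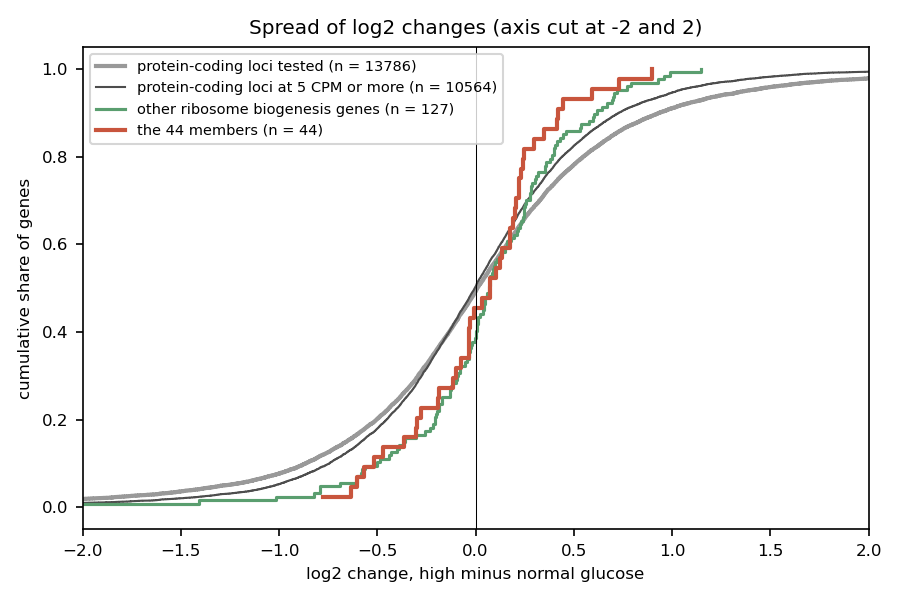
Cumulative share of genes (vertical axis) against the log2 change for the 44 members, 127 other ribosome biogenesis genes, 13786 protein-coding loci and those of them with at least 5 CPM. The curve of the members is steeper than those of the protein-coding loci, with quartiles at -0.19 and 0.22.

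The libraries held 81616741 to 87748820 counts. Normal glucose 3 stood apart in cell cycle genes, whose 14 listed members summed to 913 CPM there and to 332 to 396 CPM in the other libraries. Without it 8 members were called higher and 7 lower. Without normal glucose 1 or 2 these counts were 1 and 4 each time, without high glucose 1 they were 1 and 0, without high glucose 2 they were 0 and 1, and without high glucose 3 they were 1 and 0. In these fits the share of protein-coding loci called was 39.1% without normal glucose 3, 14.8% and 14.6% without normal glucose 1 and 2, and 8.46%, 7.39% and 8.01% without high glucose 1, 2 and 3. Leaving out a library also leaves fewer for the test. The sign of each of the 10 called changes was kept in all 6 omissions. The share of all tested loci called without normal glucose 3 was 28.7%. Of the markers of retinal pigment epithelium, CRX was at 0 in all libraries, RPE65, TYR, DCT and TTR were too low to test, and OTX2, MITF, RDH5, KRT8 and KRT18 had group means of at least 31.2 CPM. The RDH5 locus also holds BLOC1S1, so its count may not be of RDH5 alone. Of 11 tested markers KRT8 and KRT18 rose, by 1.66 and 1.88 on the log2 scale, and BEST1, a chloride channel, fell by 2.20. The median of the 11 was -0.05, with 5 above 0. The 16 listed markers summed to 625 to 1174 CPM in normal and 2248 to 2372 CPM in high glucose, most of it from the 2 keratins. The part of these differences in the results on the 44 genes was not tested. In bulk RNA a change in the number of cells of a kind and a change in RNA per cell cannot be told apart.

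Polymerase I genes included 2 that rose. POLR1A, the largest subunit of RNA polymerase I (chr2:86020216-86106155, minus strand), was at 141, 151 and 158 CPM in normal glucose 1, 2 and 3 and at 192, 211 and 197 CPM in high glucose 1, 2 and 3. Every high glucose library lay above every normal one, and POLR1A rose 1.34-fold (log2 change 0.42, SE 0.098; edgeR FDR = 0.0276). UBTF, the factor that binds ribosomal DNA and opens it for the polymerase (chr17:44205033-44221626, minus strand), was at 34.5, 32.7 and 43.3 CPM and at 57.5, 54.1 and 54.7 CPM. It rose 1.51-fold (log2 change 0.59, SE 0.135; edgeR FDR = 0.0252), with normal glucose 3 the nearest to the high group. POLR1B, the other large catalytic subunit, had a log2 change of 0.22 (edgeR FDR = 0.158) with groups that did not overlap. POLR1C, a subunit shared with polymerase III, had one of -0.03, and RRN3, which recruits the polymerase to the promoter, one of -0.12. RRN3 has 4 annotated pseudogenes, RRN3P1 to RRN3P4, and reads may be divided among such copies. Both calls were lost without normal glucose 1 (POLR1A 0.0759, UBTF 0.0761) or 2 (0.0642 and 0.0703), and the FDR lay at 0.0846 to 0.121 for POLR1A and 0.0854 to 0.0951 for UBTF without a high glucose library.

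MYC was at 44.9, 107 and 34.9 CPM in normal glucose 1, 2 and 3 and at 41.8, 42.2 and 46.7 CPM in high glucose 1, 2 and 3. Normal glucose 2 stood far above the other libraries, and the groups overlapped. Its log2 change was -0.52 (95% interval -1.44 to 0.40; edgeR FDR = 0.402), and without normal glucose 2 it was 0.13 (FDR 0.635), so no direction is given. Of the 15 members with the E-box in the promoter window, NOP14 rose and WDR43 fell, and the median log2 change of the 15 was 0.07. The 22 windows without it had a median of 0.02, with 3 genes that rose and 3 that fell. Of 16 tested partners, relatives and stability factors of MYC, none rose and 3 fell (18.8%, against 25.5% of protein-coding loci called), with a median of -0.33 that was -0.14 without normal glucose 3. MGA, a repressor that pairs with MAX, fell from 67.6 ± 9.81 to 46.2 ± 5.10 CPM (SD, n = 3; edgeR FDR = 0.0395), and MXD1, a MYC antagonist whose locus also holds SNRNP27, from 83.3 ± 7.99 to 56.3 ± 9.67 CPM (SD, n = 3; edgeR FDR = 0.0427). The number of this list that fell was 1 with total count scaling, upper quartile scaling or no filter and 0 with FPKM values. It was 0 without normal glucose 1 or 2 or any 1 of the high glucose libraries, and without normal glucose 3 it was 4, with 1 that rose. Without normal glucose 3, 39.1% of protein-coding loci were called, and without any other library 7.39% to 14.8%. Among 11 tested MYC targets outside the nucleolus, ODC1, the first enzyme of polyamine synthesis, rose by 1.2 on the log2 scale, and CDK4, a cell cycle kinase, fell by 0.68. None of this list was called without high glucose 2 or without high glucose 3, and CDK4 was also lost without normal glucose 2 or high glucose 1.

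In the box C/D particle, which directs methylation of ribosomal RNA, and its U3 relative, 1 of 4 members was called. NOP56, a scaffold protein (chr20:2652593-2658393, plus strand), was at 85.3, 84.6 and 74.4 CPM in normal glucose 1, 2 and 3 and at 51.2, 57.7 and 56.0 CPM in high glucose 1, 2 and 3. The groups were well apart, and NOP56 fell by 0.57 on the log2 scale (SE 0.108; edgeR FDR = 0.0148). Without high glucose 1, 2 or 3 its FDR was 0.0738, 0.0616 and 0.0667. NOP58, its partner in the same particle, was at 17.5, 16.5 and 16.9 CPM and at 20.2, 18.9 and 18.9 CPM, with a log2 change of 0.19 (edgeR FDR = 0.305). FBL, the methyltransferase fibrillarin, was at 66.0, 63.1 and 72.5 CPM and at 63.6, 62.9 and 61.9 CPM (log2 change -0.10; edgeR FDR = 0.543). RRP9, a protein of the U3 snoRNA particle, had a log2 change of 0.07. The ratio of NOP56 to NOP58, in FPKM and thus per length and free of library scaling, was 3.24, 3.40 and 2.91 in normal and 1.68, 2.02 and 1.97 in high glucose. In an exact permutation test of the log2 ratio, 2-sided, p was 0.1, the smallest that 3 against 3 libraries allow. This pair was chosen after the values were seen.

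The box H/ACA particle, which directs pseudouridylation and also stabilises telomerase RNA, had no called change among its 4 core proteins. DKC1, the pseudouridine synthase dyskerin, was at 37.5, 41.2 and 40.3 CPM in normal glucose 1, 2 and 3 and at 38.2, 37.9 and 36.7 CPM in high glucose 1, 2 and 3, with overlapping groups (log2 change -0.08, 95% interval -0.32 to 0.17). NHP2, NOP10 and GAR1 had log2 changes of 0.07, 0.22 and 0.24. NOLC1, a phosphoprotein chaperone of both kinds of snoRNA particle (chr10:102152176-102163871, plus strand), was at 50.7, 46.7 and 69.9 CPM and at 83.5, 103 and 90.3 CPM. It rose 1.66-fold (log2 change 0.73, SE 0.176; edgeR FDR = 0.0298), with every high glucose library above every normal one. Its call was lost without normal glucose 1 or 2 (0.0923 and 0.0827) and without high glucose 1, 2 or 3 (0.0721, 0.112 and 0.0897).

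Of 5 abundant or regulatory nucleolar proteins NPM1 fell and the others were not called. NPM1, or nucleophosmin, a chaperone of ribosome assembly and export (chr5:171387116-171411137, plus strand), was the highest of the 44 per length, at a mean of 65.6 FPKM. It was at 360.4, 361 and 358 CPM in normal glucose 1, 2 and 3 and at 255, 267 and 257 CPM in high glucose 1, 2 and 3, so replicates differed by far less than the groups. NPM1 fell by 0.47 on the log2 scale (SE 0.0877; edgeR FDR = 0.0137), and without high glucose 1, 2 or 3 the FDR was 0.0729, 0.0676 and 0.0744. RefSeq lists 50 NPM1 pseudogenes, so its count is uncertain. NCL, or nucleolin, was at 166, 137 and 194 CPM and at 213, 190.0 and 207 CPM, with overlapping groups (log2 change 0.29; edgeR FDR = 0.197). It was called without normal glucose 3 (FDR 0.0328). DDX21, a helicase linking polymerase I to rRNA processing, had a log2 change of -0.30 (edgeR FDR = 0.0706) and lower values in every high glucose library, and it was called without normal glucose 3 (FDR 0.0251) and with a filter at 1 CPM (0.0447). MYBBP1A, a nucleolar co-repressor, had a log2 change of -0.19, and LYAR, a nucleolar growth regulator and the lowest of the 44 in CPM, one of -0.60 (95% interval -1.26 to 0.05). The ratio of NPM1 to NCL in FPKM, also chosen after the values were seen, was 3.92, 4.79 and 3.33 in normal and 2.17, 2.54 and 2.24 in high glucose (exact permutation p = 0.1).

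**Figure D3:**
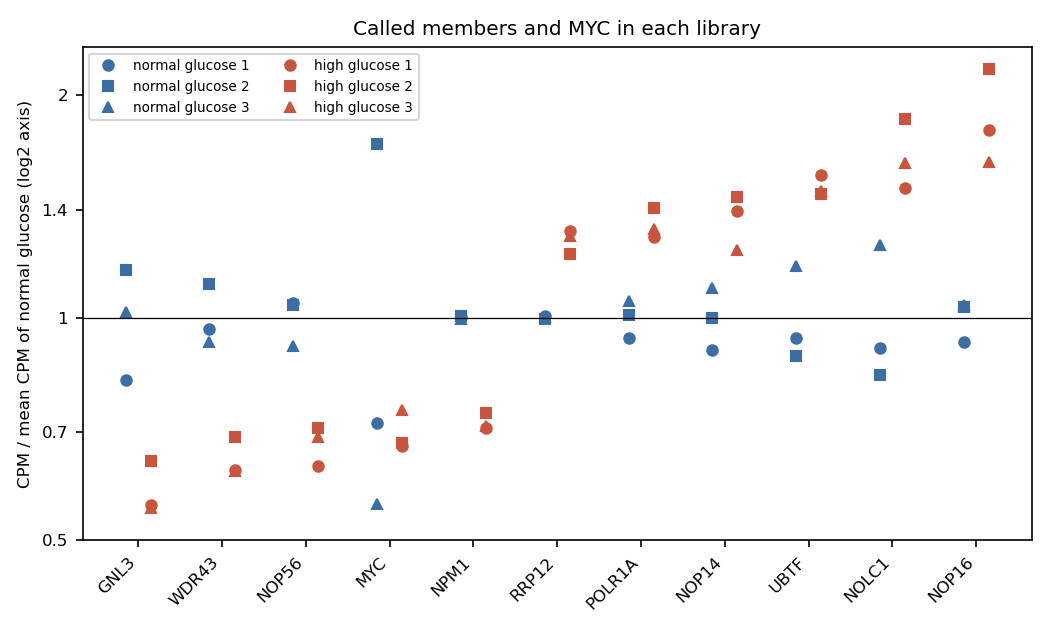
Level of the 10 called genes and MYC in each of the 6 libraries, as CPM divided by the mean CPM of the normal glucose libraries (vertical axis, log2 scale). Blue symbols are normal and red symbols high glucose, with circles, squares and triangles for libraries 1, 2 and 3. The groups are apart for the 10 called genes, while MYC is raised in normal glucose 2 alone, at 107 CPM.

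Small subunit assembly factors included 2 genes that rose and 1 that fell. NOP14, a core factor of the small subunit processome (chr4:2937933-2963406, minus strand), was at 53.9, 59.5 and 65.3 CPM in normal glucose 1, 2 and 3 and at 83.1, 86.9 and 73.5 CPM in high glucose 1, 2 and 3. It rose by 0.45 on the log2 scale (SE 0.12; edgeR FDR = 0.0419), with a gap between the groups. RRP12, a large factor that accompanies the particle to the cytoplasm (chr10:97356358-97426076, minus strand), was at 73.6, 72.9 and 73.5 CPM and at 96.0, 89.3 and 94.5 CPM. RRP12 rose by 0.35 (SE 0.0917; edgeR FDR = 0.0394), but its FDR was 0.0504 with DESeq2 and 0.0798 with no filter on low counts, where NOP14 reached 0.0617. Without normal glucose 1 or 2 or any 1 high glucose library, the FDR was 0.0812 to 0.155 for NOP14 and 0.0884 to 0.143 for RRP12.

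WDR43, a subunit of the complex that loads first on the rRNA precursor (chr2:28894667-28948219, plus strand), was at 152, 174 and 145 CPM in normal glucose 1, 2 and 3 and at 97.7, 108 and 97.2 CPM in high glucose 1, 2 and 3. It fell by 0.64 on the log2 scale (SE 0.112; edgeR FDR = 0.0116), and its FDR was 0.0608 and 0.0634 without high glucose 1 and 3. Among other subunits of that complex, UTP4 had a log2 change of -0.30 (edgeR FDR = 0.095) and was called lower, like WDR43, once normal glucose 3 was left out (0.0486). UTP15 had a log2 change of 0.13 and WDR75 of 0.25 (edgeR FDR = 0.134). In FPKM, WDR43 was 4.99, 5.23 and 4.42 times WDR75 in normal and 2.67, 2.83 and 2.44 times in high glucose (exact permutation p = 0.1; chosen after the values were seen). UTP18, another processome subunit, had a log2 change of -0.36 (edgeR FDR = 0.0569). It was called without normal glucose 3 (0.0353), with a filter at 1 CPM (0.0341) with counts divided by 4 (0.0386) and with limma on FPKM (0.0455 with a pseudocount of 1). UTP20 and the late factor BYSL had log2 changes of 0.17 and -0.01, and NOC4L of -0.03.

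Large subunit assembly factors, 14 of the 44, held the largest change in each direction. NOP16, a factor of the early large subunit (chr5:176383938-176388762, minus strand), was at 10.1, 11.2 and 11.3 CPM in normal glucose 1, 2 and 3 and at 19.5, 23.6 and 17.6 CPM in high glucose 1, 2 and 3. The lowest high glucose library was well above the highest normal one. NOP16 rose 1.86-fold (log2 change 0.90, SE 0.156; edgeR FDR = 0.0112), and it was called in each omission of a library except that of high glucose 2 (0.0553). GNL3, or nucleostemin, a GTP-binding protein of proliferating cells (chr3:52681156-52694497, plus strand), was at 56.8, 80.0 and 70.2 CPM and at 38.4, 44.2 and 38.1 CPM. It fell by 0.78 on the log2 scale (SE 0.151; edgeR FDR = 0.0154), and the FDR came to 0.0711, 0.0533 and 0.0743 without high glucose 1, 2 and 3. The GNL3 locus overlaps PBRM1 and GLT8D1 and that of NOP16 overlaps ARL10 and HIGD2A in RefSeq, and reads of such neighbours may enter the counts. GNL2, a related GTPase needed for export of the large subunit, had a log2 change of 0.23 (edgeR FDR = 0.258). The ratio of GNL3 to GNL2 in FPKM, chosen after the values were seen, was 4.27, 5.14 and 4.08 in normal and 2.07, 2.43 and 2.19 in high glucose (exact permutation p = 0.1).

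**Figure D4:**
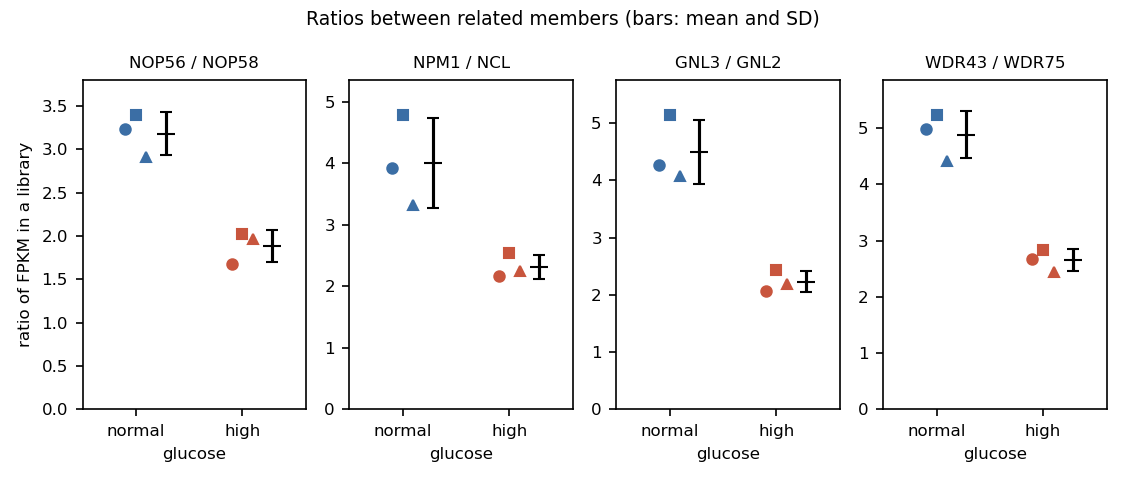
Ratio of the FPKM values of related members within each library (vertical axis) for normal and high glucose, with circles, squares and triangles for libraries 1, 2 and 3 and bars for mean and SD. In the 4 pairs every high glucose library lies below every normal one, as for NOP56 over NOP58 at 1.68 to 2.02 against 2.91 to 3.40. The pairs were chosen after the values were seen, each with a gene called lower over a related gene with a positive estimate. Their separation is therefore no independent test.

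The complex of PES1, BOP1 and WDR12, which acts in large subunit processing, was not called in any member. PES1 was at 77.3, 74.2 and 63.2 CPM in normal glucose 1, 2 and 3 and at 83.0, 78.0 and 81.1 CPM in high glucose 1, 2 and 3 (log2 change 0.17; edgeR FDR = 0.327). BOP1 was at 38.7, 41.5 and 46.8 CPM and at 35.6, 32.0 and 37.1 CPM (log2 change -0.28; edgeR FDR = 0.16). Both were separated between the groups, by little and with opposite sign, while WDR12 overlapped (-0.03). NIP7, a factor of late processing, had a log2 change of 0.41 (edgeR FDR = 0.124) and was called without normal glucose 3 (0.0282). NOC2L and NOC3L, which work as a pair, had log2 changes of 0.20 and 0.21, and EBNA1BP2 of 0.12. RRP1 and RRP1B, paralogs of 1 yeast factor, had -0.19 and -0.03. NOP2 shared its locus with CHD4 and RRS1 with ADHFE1 and VXN, so their log2 changes of 0.03 and 0.10 may describe those genes. Loci of other members also overlap coding genes in RefSeq, as EBNA1BP2 does with CFAP57 and TMEM125 and NHP2 with N4BP3 and RMND5B. POLR1C overlaps LRRC73, YIPF3 and XPO5, and reads of such neighbours may enter these counts.

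Some ribosome biogenesis genes carry snoRNA genes in their introns. RefSeq places named snoRNA genes, 22 in all, inside 6 of the 44 genes, namely NOP56, NOP58, DKC1, NCL, WDR43 and GNL3. Of these 6 hosts 3 fell and none rose, with a median log2 change of -0.32. The other 38 members had 6 that rose, 1 that fell (NPM1) and a median of 0.09. This split was made after the data were seen and was not tested, and 12.4% of protein-coding loci fell. NOP56 contains SNORA51, SNORD110, SNORD56, SNORD57 and SNORD86, and GNL3 contains SNORD19 and SNORD69 among others, and no separate count of these short RNAs was used. The loci counted as NOP56, NOP58, DKC1 and GNL3 also bear snoRNA names, so reads of these RNAs may enter their counts. Of 20 loci named for noncoding snoRNA host genes, 8 fell and none rose, with a median of -0.40, where 9.86% of all tested loci fell. Some of these loci also hold coding genes, as SNHG3 with RCC1, SNHG4 with MATR3, SNHG14 with SNRPN and SNHG32 with HSPA1A and HSPA1B, so their counts are not of the noncoding gene alone. DANCR, in a locus with RASL11B, fell from 35.4 ± 12.7 to 8.88 ± 2.30 CPM (SD, n = 3; edgeR FDR = 0.00864), and SNHG7 from 31.2 ± 5.59 to 18.1 ± 1.28 CPM (SD, n = 3; edgeR FDR = 0.0180). The number that fell was 3 with total count scaling and 5 with upper quartile scaling or no filter, and with FPKM values it was 4, with 1 that rose. Of 25025 tested loci 2199 fell with total count scaling, 2358 with upper quartile scaling, and 1987 and 2142 with FPKM at pseudocounts of 1 and 0.1. With no filter 2195 of 39140 fell. It was 1, 2 and 12 without normal glucose 1, 2 and 3, with 1 that rose in the last case, and 1 without each high glucose library. Among the 7 hosts in the 127 further ribosome biogenesis genes, 2 rose and 1 fell, with a median of 0.12.

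These 127 further ribosome biogenesis genes had 18 that rose and 10 that fell (22.0%) and a median log2 change of 0.07. The same fit called 25.5% of protein-coding loci (13.1% higher, 12.4% lower), which is also the background for each role of this list. With total count scaling 21 rose and 7 fell. Without normal glucose 1, 2 and 3 the numbers that rose were 9, 9 and 30 and those that fell 6, 4 and 14, and without high glucose 1, 2 and 3 they were 4, 4 and 5 and 3 each time. In small subunit assembly 8 of 47 rose and 1 fell, and the median was 0.18. DDX47, a helicase whose locus also holds APOLD1, rose from 77.7 ± 8.49 to 151 ± 0.931 CPM (SD, n = 3; edgeR FDR = 0.00367), and EMG1, an rRNA methyltransferase in a locus with C1S, rose from 76.6 ± 13.7 to 170 ± 9.69 CPM (SD, n = 3; edgeR FDR = 0.00507). UTP25 fell by 0.60 on the log2 scale. In large subunit assembly 8 of 50 rose and 5 fell, with a median of 0.03. LAS1L, which takes part in removal of an rRNA spacer, rose by 0.69, and PPAN, whose locus also holds P2RY11, by 0.72. RSL24D1, a ribosomal protein-like factor, fell by 0.58, and NOP53 fell by 0.49.

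In polymerase I transcription 1 of 15 further genes rose and 2 fell. POLR1E, a polymerase I subunit, rose from 40.2 ± 5.01 to 65.1 ± 4.44 CPM (SD, n = 3; edgeR FDR = 0.0134), as POLR1A did. TAF1B, a part of the promoter selectivity factor, fell by 0.58. SIRT7, a deacetylase that activates the polymerase, fell by 1.41 in a locus that also holds MAFG. Of 15 genes of the exosome and rRNA trimming, EXOSC3, in a locus with FBXO10 and other genes, rose by 0.36. EXOSC8 fell by 0.79, and EXOSC6, in a locus with SMG1P7, fell by 2.80. Of 16 genes of p53 signalling, which nucleolar damage is known to switch on, 2 rose (FAS by 1.37 and FDXR by 0.69) and 1 fell (SESN2 fell by 1.65), with a median of -0.16. Without normal glucose 3, 2 rose and 6 fell, and DESeq2 called 3 and 3. The median was 0.03 without normal glucose 2, and 1 rose and none fell without any 1 high glucose library. Of 14 cell cycle genes none rose and 2 fell, with a median of -0.65: MCM7 fell by 0.66 and MCM3 fell by 0.74. Without normal glucose 3, which stood apart in these genes, 3 rose and 2 fell and the median was -0.03. The number that fell was 1 without normal glucose 1, and 0 without normal glucose 2 or any 1 high glucose library, with total count scaling and with FPKM values. In the edgeR fit of all 6 libraries, this list and that of p53 signalling had smaller called shares than the 25.5% of protein-coding loci. For p53 signalling the share was larger in some other fits. Examples are DESeq2, with 27.1% of protein-coding loci called, and the fit without normal glucose 3, with 39.1%. Without a high glucose library 7.39% to 8.46% of protein-coding loci were called.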

How the data were processed

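The deposited table gives, for each locus and library, a whole-number count that the authors left without scaling and an FPKM value, which the authors corrected for length and depth (units per the file headers). Bowtie 0.12.2 and a mouse build, mm8, stand in the submitters' processing notes, yet the identifiers are human, and all 44 loci overlap the RefSeq gene of that name in GRCh38.p14. The counting tool and its use of strand are not given in the sources used here. The value 4 occurred 9555 times and the value 3 only 4210 times, so a fragment may have added several counts.

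A gene was matched to the locus with an annotated transcript that bears its name. All 37 mitochondrial loci were at 0 and left out. After filterByExpr and TMM, edgeR 4.0.16 (quasi-likelihood F test of the 2 groups, R 4.3.3) was run, and SE is the estimate divided by the root of F. DESeq2 1.42.0, limma 3.58.1 (voom with group weights, log2 FPKM with pseudocounts of 1 and 0.1), other scalings and filters, a replicate block and omission of each library were alternatives. The edgeR step was tested on simulated data. Members and lists were chosen with earlier results of these data known. Library values are given for MYC, for fixed examples of the roles and for up to 8 called members per direction. From the other lists up to 2 called genes per direction and role are named. NOP58 was given in full after its values were seen.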

Additional observations from a re-analysis of the deposited data

How the results depend on the processing

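The number of members called higher and lower was 6 and 4 with RLE, upper quartile or total count scaling and with voom, 6 and 6 with a filter at 1 CPM, 6 and 5 with counts divided by 4 and with limma on FPKM at both pseudocounts, 5 and 4 with DESeq2 and 4 and 4 with no filter. The share of protein-coding loci called was 25.5% with RLE, 25.6% with upper quartile and 25.3% with total count scaling, and 27.6% with voom. It was 32.0% with a filter at 1 CPM, 30.8% with counts divided by 4, and 27.1% with DESeq2. With limma on FPKM it was 23.2% and 24.1% at pseudocounts of 1 and 0.1, and with no filter 19.5%. A minimum log2 change of 0.5 left 0 and 0, where 7.64% of protein-coding loci were called. Libraries share only a number, and deviations of same-numbered libraries correlated at -0.025, 0.018 and -0.0089, so no pairing was assumed. With the replicate block 1 member was called higher and 2 lower, 9 and 3 of the further ribosome biogenesis genes, and 2 snoRNA host genes lower. The block called 13.9% of protein-coding loci, and 1233 of 25025 loci lower. Omitting a library gave 0 to 8 members higher and 0 to 7 lower, 4 to 30 and 3 to 14 further genes, and 1 to 12 snoRNA host genes lower. Over these omissions 7.39% to 39.1% of protein-coding loci were called, and 691 to 3683 loci were called lower. The median of members lay between 0.04 and 0.10 over omissions. The snoRNA host genes called lower numbered 5 with upper quartile scaling, 3 with total count scaling, 5 with no filter, and 4 with FPKM at either pseudocount; their count was added after the data were seen.

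Some changes that were not called turned sign, most of them near 0, and MYC, at -0.52, among them. With total count scaling log2 changes were 0.016 for POLR1C, 0.0092 for NOC4L, 0.034 for BYSL, 0.011 for WDR12 and 0.012 for RRP1B. With FPKM and a pseudocount of 1 they were 0.016 for POLR1C, 0.016 for NOC4L, 0.021 for BYSL, 0.0075 for WDR12 and 0.015 for RRP1B, and with 0.1 they were 0.023, 0.020, 0.022, 0.0090 and 0.017. BYSL was at 0.0035 with upper quartile scaling. Over omitted libraries MYC ranged from -0.80 to 0.13, POLR1C from -0.13 to 0.11, NHP2 from -0.10 to 0.19, NOC4L from -0.11 to 0.12, BYSL from -0.17 to 0.16, NOP2 from -0.0011 to 0.064, WDR12 from -0.065 to 0.012 and RRP1B from -0.12 to 0.085. The cause was not tested. Each member had at least 307 counts in every library, although a fragment may have added several counts. The part of depth in these turns of sign was not tested, and 3 libraries per group limit the precision.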
